A study of Homo sapiens with 6 samples.

Results

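The regions described here are the SMARCA4 ChIP-seq peaks of K562 cells that lie in the 4 HOX gene clusters. Each cluster was taken as a window from its first to its last HOX gene in the GENCODE annotation on hg19, with 20 kb added on each side, and a peak was counted when it overlapped the window. The 4 windows held 29 of the 28265 peaks, and 38 HOX genes were followed one by one. Counts of genes are out of these 38, which are not every HOX gene annotated in the windows. The peaks fell into only 2 of the clusters, with 22 in HOXB, 7 in HOXC, and 0 in HOXA and in HOXD.

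K562 is an established chronic myelogenous leukaemia line with erythroid and megakaryocytic features, and SMARCA4 (also called BRG1) is an ATPase subunit of the SWI/SNF chromatin remodelling complex. The study mapped SMARCA4 in untreated cells of this line, grown under 1 condition and crosslinked with disuccinimidyl glutarate and formaldehyde, in order to compare its binding sites with folded G-quadruplexes (G4s), the 4-stranded structures that guanine-rich DNA can form. There were 3 ChIP libraries with an antibody against SMARCA4 and 3 input libraries. The deposited description calls the ChIP replicates technical and mentions 1 input, whereas the study calls the ChIP replicates biological. The list analysed keeps the regions found in at least 2 of the 3 ChIP replicates, and gives each as a position with no read depth, score or value per replicate, so the evidence for each gene is the place of a peak and not its height.

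HOX genes encode homeodomain transcription factors that give cells their position along the head-to-tail axis of the embryo. They sit in clusters in the same order in which they are switched on, from the anterior (low-numbered) genes of the hindbrain and neck, through the central genes of the trunk, to the posterior (high-numbered) genes of the lower trunk, limb ends and genital tract. In the blood system several of them act in stem and progenitor cells, and some are active in leukaemias. The clusters are known as classic targets of 2 opposed groups of chromatin regulators, the Polycomb repressors and the trithorax group, to which the fly relative of SMARCA4 belongs.

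Promoters of genes typical of K562 and of other cell types were looked at as a description. These lists were chosen with earlier results of these data known, so the counts are no independent check of the cell label. Of 9 genes typical of K562, among them GATA1, TAL1, KLF1 and the fetal and embryonic globin genes, 9 had a peak no more than 1 kb from a transcription start site (TSS), and of 10 genes of other cell types, among them PAX5, CD3E, ALB and MYOD1, 0 had one. The embryonic globin gene HBE1 was called at an alternative start, inside a peak that also covers a start of HBG2, and by canonical TSS 8 of the 9 had a peak. By any coding TSS, 46.8% of all coding genes had a peak within 1 kb. The share was 62.9% for those with a CpG ratio of at least 0.6 (defined below) and 15.2% for the others. Such a ratio was found for 1 of the 9 K562 genes and 5 of the 10 genes of other cell types. Nearest to the limit of 1 kb were LMO2 at 0.941 kb, which was called, and PAX5 at 1.82 kb, which was not. A peak at a promoter is not a measure of expression.

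A sequence at a HOX promoter with a peak is given first, for a gene whose peak held G4 motifs just upstream of a TSS. A G4 motif was any stretch, on the plus or the minus strand, in which 4 guanine runs of 3 or more bases were separated by loops of 1 to 7 bases. It is a sequence match, and folding was not measured here. The HOXC6 sequence lies at chr12:54388396-54388695 of hg19 on the plus strand and ends just before the TSS of a HOXC6 transcript. Capitals mark the matched motifs.
HOXC6: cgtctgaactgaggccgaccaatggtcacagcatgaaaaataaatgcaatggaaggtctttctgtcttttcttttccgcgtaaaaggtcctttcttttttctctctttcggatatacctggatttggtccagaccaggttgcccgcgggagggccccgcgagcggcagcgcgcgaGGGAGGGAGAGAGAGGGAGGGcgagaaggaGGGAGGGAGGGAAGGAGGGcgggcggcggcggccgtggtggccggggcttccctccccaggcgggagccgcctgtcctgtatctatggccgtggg

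The HOXC6 sequence holds 2 motifs in a row, at 147 bp and 118 bp upstream of the TSS, measured from the centre of each motif.

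Motifs of the same kind stood upstream of HOX genes that had no peak. The following 4 were each the nearest to its gene's canonical TSS within 1 kb upstream. They are written on the strand that carries the guanines, and have their guanine runs of 3 or more in capitals. A long stretch of guanines can count as more than 1 run, with a guanine as the loop, as in HOXA7, HOXA13 and HOXB5.
HOXA7: GGGGGGGcGGGGtGGGGGG
HOXA13: GGGGGGGccGGGccaatGGG
HOXB5: GGGGGGGGGGttggaaGGGGGGtGGGGGG
HOXD13: GGGaGGGGGcctGGGccggtcGGGGGG
These motifs stood at chr7:27196545-27196563 (minus strand) for HOXA7, chr7:27239831-27239850 (minus strand) for HOXA13, chr17:46671173-46671201 (plus strand) for HOXB5 and chr2:176957378-176957404 (minus strand) for HOXD13. They lay 260 bp, 131 bp, 46 bp and 58 bp upstream of their genes, in that order. Of the 38 HOX genes, 26 had at least 1 such motif in the 1 kb upstream of the canonical TSS, and of those 26 genes 5 had a peak within 1 kb of a TSS. Motifs were counted at the canonical TSS and peaks at any coding TSS. HOXC6, called at another start, had no motif upstream of its canonical TSS and is not among the 26. Over all coding genes 47.0% had such a motif, and 52.6% of those 9308 genes had a peak. The genes with a motif were spread over the clusters, with 6 of 10 in HOXA, 8 of 10 in HOXB, 7 of 9 in HOXC and 5 of 9 in HOXD.

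The clusters differed widely in their number of peaks. The HOXB window, chr17:46585888-46826112 (240 kb), held 9.16 peaks per 100 kb, with 3.89% of its bases inside a peak. The HOXC window, chr12:54312615-54469814 (157 kb), held 4.45 peaks per 100 kb and had 1.44% of its bases in peaks. The HOXA window, chr7:27112612-27259710 (147 kb), and the HOXD window, chr2:176937449-177075635 (138 kb), held none. The genome outside assembly gaps held 0.989 peaks per 100 kb, with 0.457% of bases covered.

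**Figure D1:**
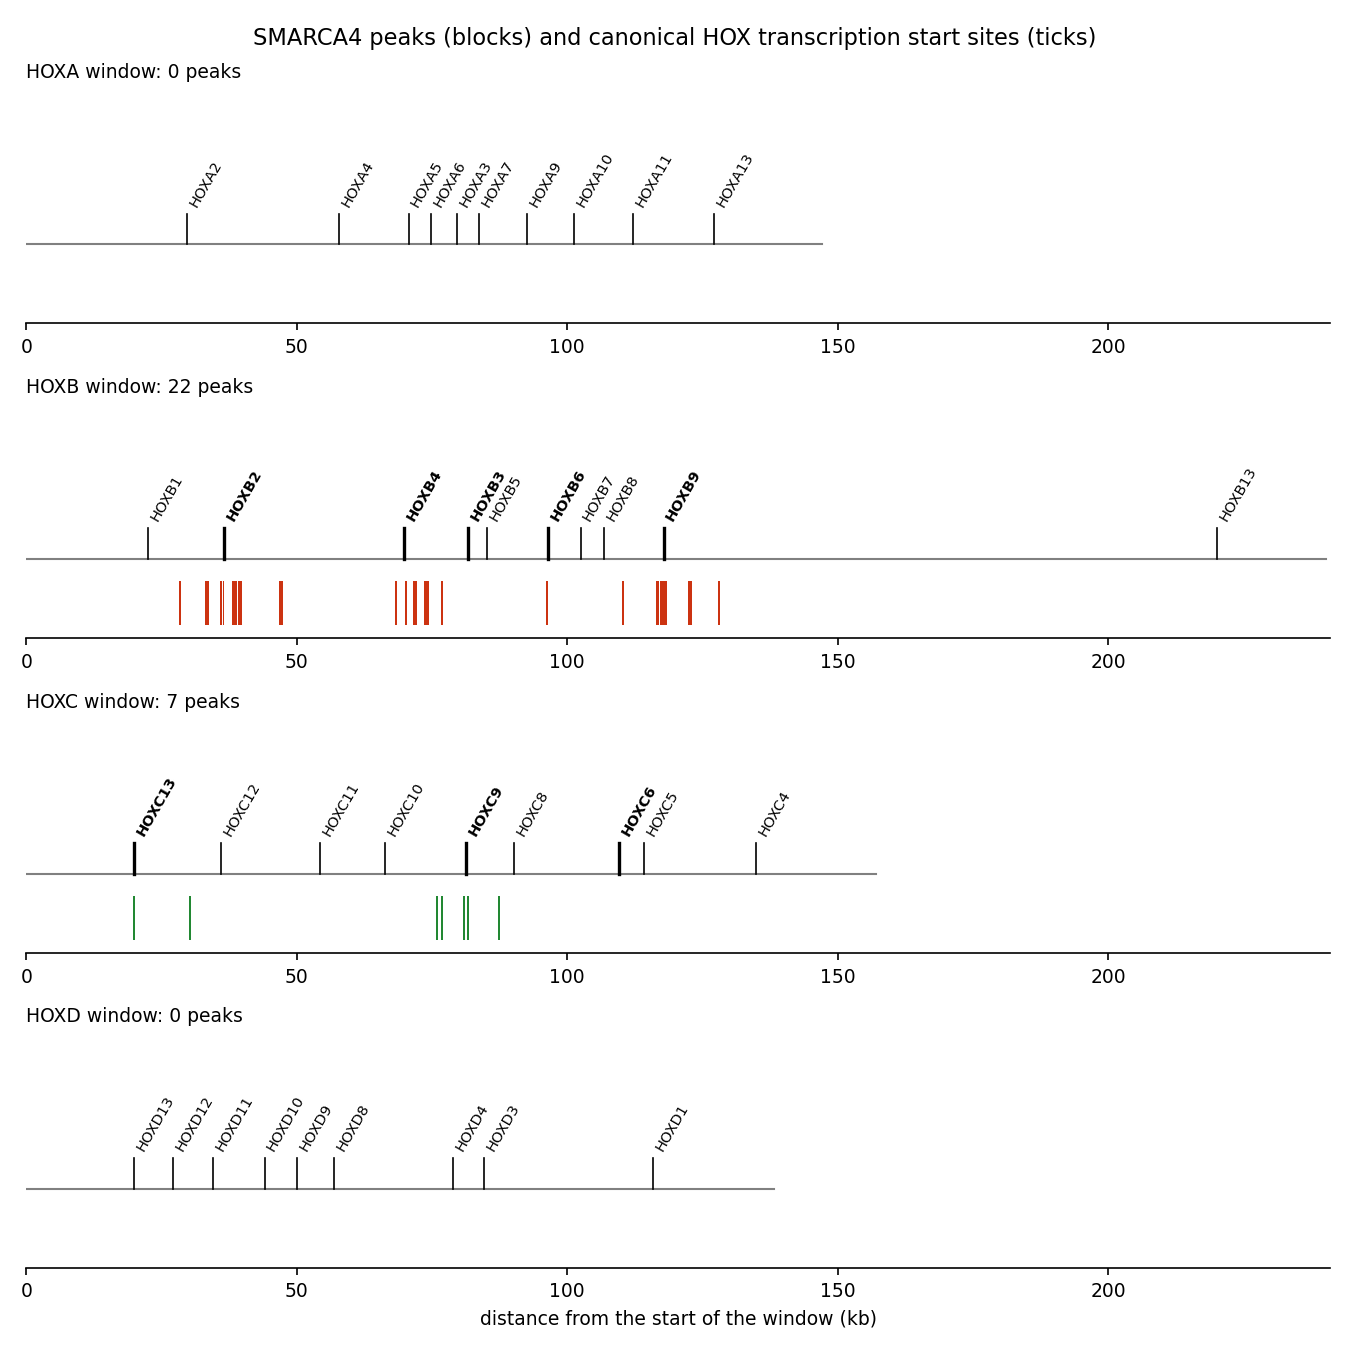
Map of the 4 windows, each drawn from its own start on 1 scale in kb, with a tick at the canonical TSS of each HOX gene (bold name: a peak within 1 kb of any coding TSS) and a block at each SMARCA4 peak (narrow blocks are widened so that they can be seen). The 22 HOXB peaks lie between HOXB1 and a point past HOXB9, the 7 HOXC peaks lie from just before HOXC13 to just before HOXC8, and no block appears under HOXA or HOXD; the bold HOXB3 and HOXC6 have their peaks at other start sites than the canonical one drawn.

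Most stretches of the genome have no peak, and the counts have to be read against that. Of 28653 bins of 100 kb, 33.4% held at least 1 peak, 9.49% held 4 or more and 1.37% held 9 or more. The HOXB density is therefore one that few bins of the whole genome reach, whereas 0 peaks is the most common count. Merging peaks up to 500 bp apart leaves 15 regions in HOXB, and the bins were counted without merging. The windows are gene-rich, however. Among 997 bins with at least 4 canonical TSSs of coding genes, 13.6% had no peak and the median was 4 peaks. How many of these held 9 or more was not counted.

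The peak-free stretches around HOXA and HOXD ran well past the windows. The last peak before the HOXA window, chr7:27111283-27111537, ended 1074 bp outside it and 30.8 kb from the TSS of HOXA2, and the next began at position 27648807, so that the stretch measured 537 kb. Around HOXD the stretch ran from position 176885440 to 178029366 on chromosome 2, or 1144 kb. Of 28064 peak-free stretches, 3.33% were at least as long as the one holding HOXA and 1.47% were at least as long as the one holding HOXD. Stretches of at least these lengths together hold 52.2% and 36.8% of the bases between neighbouring peaks. The median stretch was 16.0 kb.

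GC content was alike in the 4 windows, and CpG-rich sequence made up a larger share of HOXA and HOXD than of HOXB and HOXC. GC content was 50.2% in HOXA, 49.0% in HOXB, 50.8% in HOXC and 49.4% in HOXD. Tiles of 200 bp were called CpG-rich when GC content was at least 50% and the ratio of observed to expected CpG at least 0.6, which 1.85% of the tiles of the genome met. It was met by 161 of 734 tiles in HOXA (21.9%), 156 of 1200 in HOXB, 128 of 785 in HOXC (16.3%) and 146 of 690 in HOXD (21.2%), so the windows without peaks had the higher shares. The HOXB window was the longest (240 kb), and its count of 156 tiles lay between those of HOXA and HOXD. Its last 112 kb hold HOXB13 alone of the listed HOX genes, and their part in the lower share was not tested. Over the genome 12.2% of CpG-rich tiles overlapped a peak. In HOXB it was 21 of 156 tiles (13.5%) and in HOXC 10 of 128 (7.81%), against 0 of 161 in HOXA and 0 of 146 in HOXD. The counts of 0 in HOXA and HOXD follow from the absence of peaks in these windows, and neighbouring tiles are not independent. They are therefore no evidence beyond the peak counts.

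G4 motifs were dense in all 4 windows. There were 53.0 motifs per 100 kb in HOXA, 50.8 in HOXB, 79.5 in HOXC and 55.7 in HOXD, against 13.4 in the genome. Of all motifs in the genome, 3.02% lay wholly inside a peak. In HOXB 13 of 122 did and in HOXC 3 of 125, whereas 0 of 78 did in HOXA and 0 of 77 in HOXD. These counts of 0, too, follow from the absence of peaks. A count of 0, taken as fewer than 3, allows up to 3.85% and 3.90%. A share lower than that of all motifs was thus not detectable from the number of motifs in HOXA and HOXD.

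**Figure D2:**
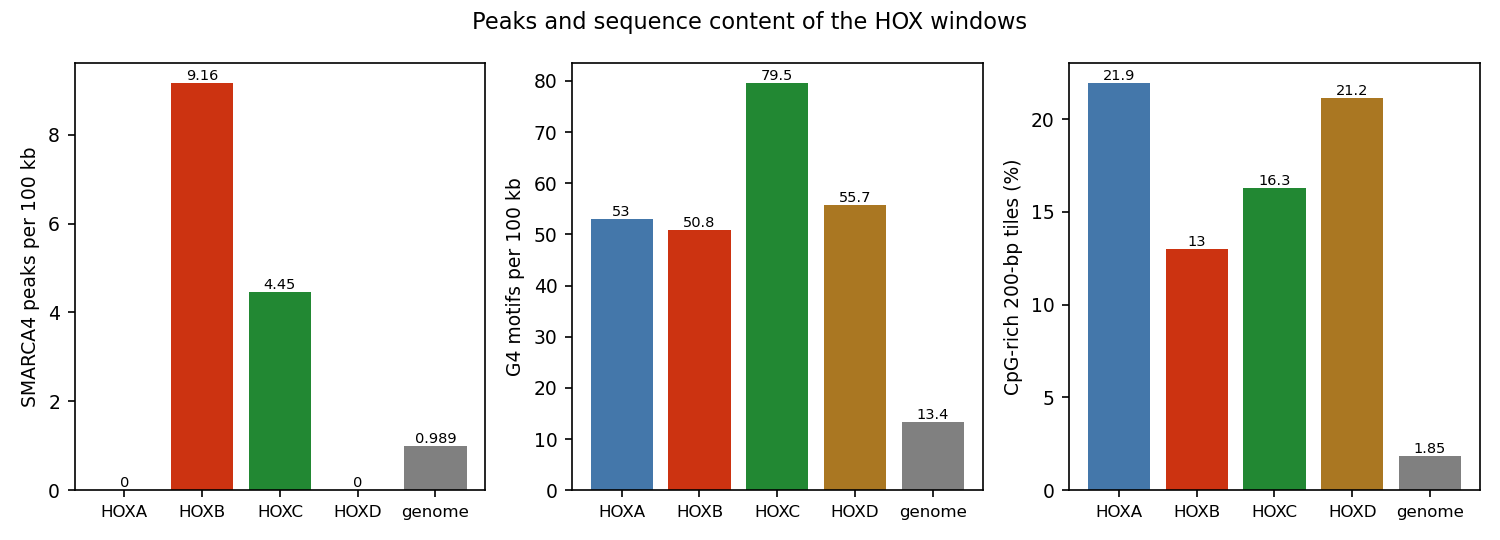
Bars give, for each HOX window and for the genome outside assembly gaps, the SMARCA4 peaks per 100 kb (left), the G4 motifs per 100 kb (middle) and the percent of 200-bp tiles that are CpG-rich (right). HOXA and HOXD stand at 0 peaks while their motif densities of 53.0 and 55.7 and their CpG-rich shares of 21.9% and 21.2% lie above those of HOXB. HOXC has the highest motif density, at 79.5. The HOXB window is the longest, with 240 kb, of which the last 112 kb hold no peak.

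A HOX gene was taken to have a peak at its promoter when a peak lay within 1 kb of the TSS of any of its protein-coding transcripts. By this rule 8 of the 38 genes (21.1%, 95% Wilson interval 11.1 to 36.3, counting error only) had one, against 46.8% of 19820 protein-coding genes. The 8 were HOXB2, HOXB3, HOXB4, HOXB6 and HOXB9, which is 5 of 10 in HOXB, and HOXC6, HOXC9 and HOXC13, which is 3 of 9 in HOXC. The share in HOXB was thus near that of all coding genes, with an interval of 23.7 to 76.3%. That of HOXC was 33.3%, with an interval of 12.1 to 64.6% that also includes it. In HOXA 0 of 10 and in HOXD 0 of 9 had a peak, with upper interval limits of 27.8% and 29.9%. Neighbouring genes can share a peak and a domain, so the genes are not independent counts.

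**Figure D3:**
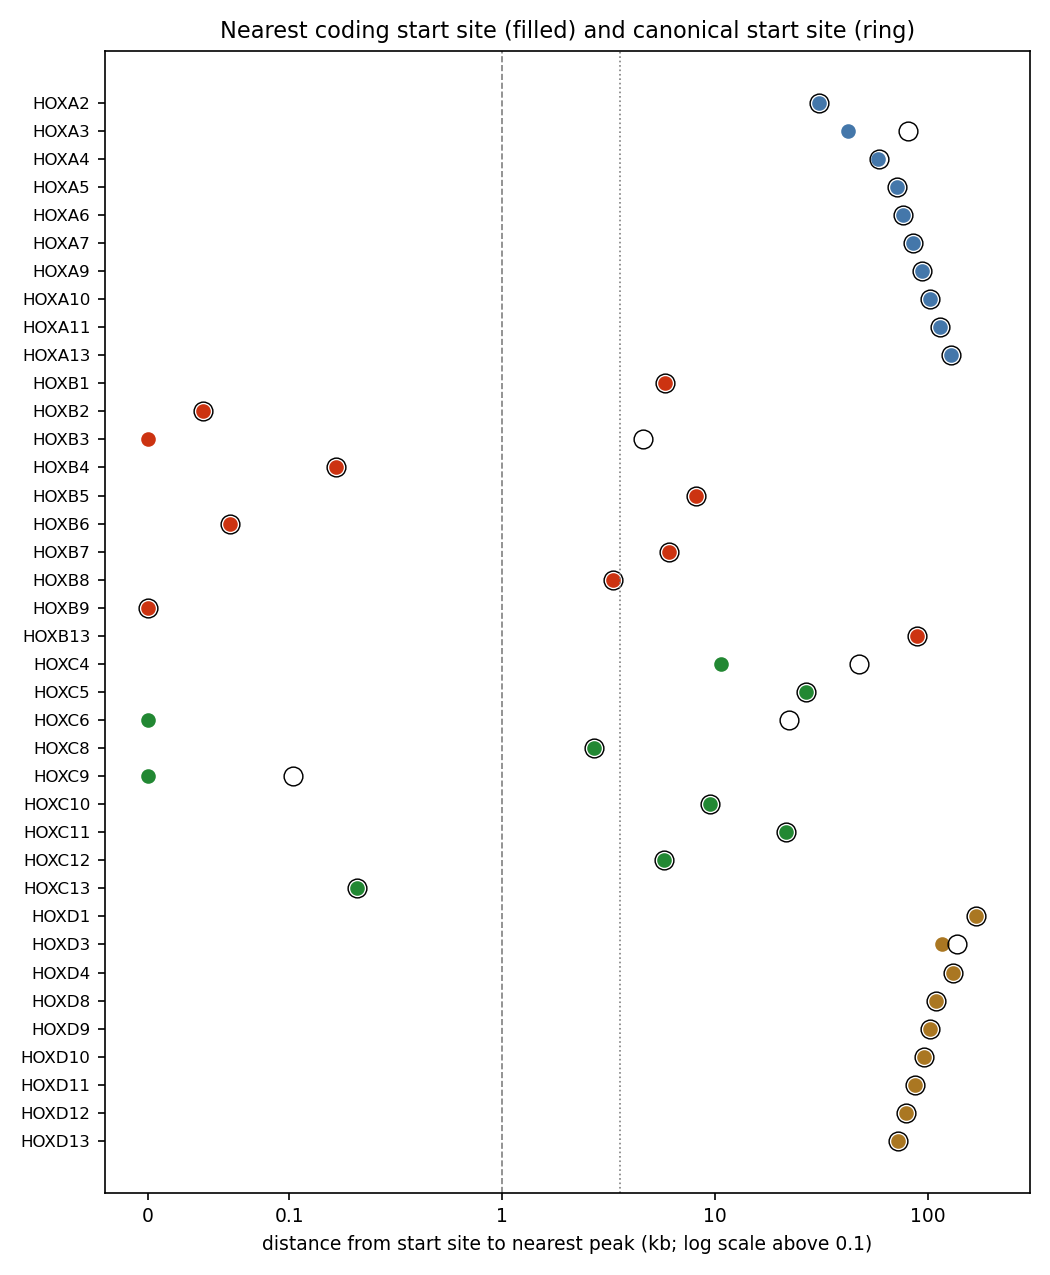
Distance in kb from each of the 38 HOX genes to the nearest SMARCA4 peak (horizontal axis logarithmic above 0.1 kb), as filled points for the nearest coding TSS, coloured by cluster, and as rings for the canonical TSS. The dashed line is the 1 kb used as the rule and the dotted line is the median of all protein-coding genes, 3.57 kb; the HOXA and HOXD genes all lie beyond 30 kb, and the rings of HOXB3 and HOXC6 stand right of the dashed line.

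Among the anterior genes (groups 1 to 3), 2 of 7 had a peak at the promoter, and both were in HOXB. HOXB2, which acts in hindbrain patterning, had a peak 39 bp downstream of its TSS, within the first exon and its 5′-UTR and coding sequence. HOXB3 has 9 coding TSSs spread over the cluster, of which 3 had a peak within 1 kb and 1 lay inside a peak. Its canonical TSS, however, lay 4.59 kb from the nearest peak, so the call rests on its alternative starts. HOXB1, a gene of the hindbrain and facial nerve, lay 5.83 kb from its nearest peak. In HOXA the nearest peak was 30.8 kb from HOXA2, which patterns the branchial arches, and 41.9 kb from HOXA3, which is needed for the thymus and parathyroid. The distances were longer in HOXD, at 168 kb for HOXD1 and 116 kb for HOXD3. From the canonical TSS it was 80.7 kb for HOXA3 and 137 kb for HOXD3, which have other starts nearer to the peak.

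Among the central genes (groups 4 to 8), 3 of 15 had a peak, namely HOXB4, HOXB6 and HOXC6. HOXB4, known for its effect on the expansion of blood stem cells, had a peak starting 165 bp upstream of its TSS and another in its second exon. HOXB6 had 1 peak, which lay 58 bp downstream of its TSS and overlapped exons 1 and 2. The same peak also covered a start of HOXB3 other than the coding ones counted here. At HOXC6 a peak covered 1 of its 4 coding TSSs, but the canonical TSS lay 22.1 kb away. This peak also covered a HOXC9 start other than the coding ones counted here. The HOXB neighbours without a call were still close to a peak, at 3.32 kb for HOXB8, 6.09 kb for HOXB7 and 8.13 kb for HOXB5. In HOXC the distances were 2.69 kb for HOXC8, 10.6 kb for HOXC4 (47.5 kb from its canonical TSS) and 26.8 kb for HOXC5. The HOXA genes were much further away, at 58.3 kb for HOXA4, 71.8 kb for HOXA5 (a gene of lung development), 75.9 kb for HOXA6 and 84.8 kb for HOXA7. HOXD8 lay 109 kb and HOXD4 131 kb from a peak.

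Among the posterior genes (groups 9 to 13), 3 of 16 had a peak, namely HOXB9, HOXC9 and HOXC13. The TSS of HOXB9 lay inside the widest HOX peak, described below. HOXC9 has 2 coding TSSs, both within 1 kb of a peak; the upstream one lay inside a peak and the canonical one 104 bp from another that overlaps its first exon. HOXC13, which is needed for hair formation, had a narrow peak of 124 bp that ended 208 bp upstream of its TSS. Without peaks under 200 bp HOXC13 has no peak at its promoter, which leaves 2 of 9 genes in HOXC and 7 of 38 in all. Its neighbours stood further off, with HOXC12 at 5.72 kb, HOXC10 at 9.41 kb and HOXC11 at 21.4 kb. HOXB13, a gene of the prostate and the tail end of the body that lies apart from the rest of HOXB, was 88.4 kb from a peak.

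The posterior genes of HOXA and HOXD include those best known outside the trunk. HOXA9, a gene of blood progenitors that is often raised in acute myeloid leukaemia, lay 93.5 kb from the nearest peak. HOXA10 lay at 102 kb, HOXA11 at 113 kb and HOXA13 at 128 kb. HOXD13, which with HOXA13 shapes the digits, was 72.0 kb from a peak, HOXD12 79.1 kb, HOXD11 86.6 kb, HOXD10 96.1 kb and HOXD9 102 kb. In HOXA and in HOXD the nearest peak of every listed gene lay outside the window, on 1 side. The median distance was 80.3 kb in HOXA, 1.74 kb in HOXB, 5.72 kb in HOXC and 102 kb in HOXD, against 3.57 kb over all coding genes.

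By paralogue group, the genes that share a number across clusters, peaks were seen in groups 2, 3, 4, 6, 9 and 13. Groups 6 and 9 each had a peak at both the HOXB and the HOXC gene. In groups 1, 5, 7, 8, 10, 11 and 12 no listed gene had a peak. The paralogues of the called genes in HOXA and HOXD had none.

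CpG-rich promoters are the class in which a peak was most common among coding genes, and most HOX promoters belong to it. With the ratio of observed to expected CpG taken over 500 bp on each side of the canonical TSS, 32 of the 38 HOX genes had a ratio of at least 0.6. A peak lay at 4 of those 32, HOXB4, HOXB9, HOXC9 and HOXC13, against 62.9% of the 13117 coding genes with such a ratio. Of the other 6 HOX genes, 4 had a peak, namely HOXB2, HOXB3, HOXB6 and HOXC6, against 15.2% of the 6703 coding genes with a lower ratio. The HOX count was thus below the background share among CpG-rich promoters and above it among the few others. HOXA9 and HOXD11, with ratios of 1.02 and 1.00, were in the highest class, in which 76.1% of 360 coding genes had a peak. For HOXB3 and HOXC6 the peak and the ratio refer to different TSSs.

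**Figure D4:**
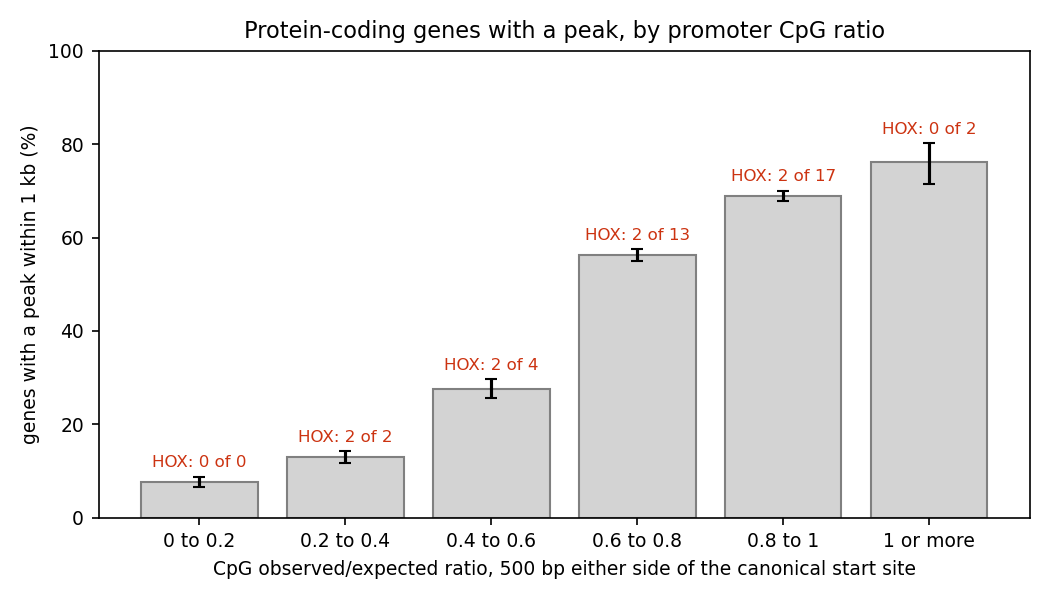
Bars give the percent of protein-coding genes with a SMARCA4 peak within 1 kb of a TSS, by class of CpG observed/expected ratio (error bars: 95% Wilson intervals, counting error only), and the text over each bar gives the HOX genes with a peak of those in the class. The bars rise from 7.60% to 76.1% whereas the HOX counts go from 2 of 2 in the class from 0.2 to 0.4 to 2 of 17 in the class from 0.8 to 1.

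Runs of neighbouring coding genes were counted after the pattern had been seen. In order of canonical TSS, HOXA belonged to a run of 14 coding genes, from SKAP2 to EVX1, that all had a CpG ratio of at least 0.6 and no peak within 1 kb. HOXD belonged to a run of 11, from EVX2 to MTX2. Of the 3013 runs of this kind in the genome, 3 had 14 or more genes and 5 had 11 or more, and the longest had 16. Without the condition on CpG, such runs were less unusual, with 76 of 3576 runs as long as that of HOXA and 121 as long as that of HOXD.

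The 22 HOXB peaks spanned 100 kb, chr17:46614198-46714200, and came in groups. A group of 8 peaks lay on both sides of the HOXB2 TSS, between 46618953 and 46625752, 5 peaks lay around HOXB4 and the HOXB3 starts upstream of it, and 3 lay at HOXB9. The gap to the next peak was under 1 kb in 7 cases and 52 bp at the least. The longest gap inside the span was 20753 bp, between the HOXB3 peak at chr17:46632618-46633336 and the peak in the second exon of HOXB4. Beyond position 46714200 the window was free of peaks for 112 kb, a stretch that holds HOXB13 and the neighbouring genes PRAC1 and PRAC2.

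The widest HOX peak was that of HOXB9, chr17:46703031-46704414, with 1384 bp. Of all peaks, 2.39% were at least as wide. It covered the TSS, the 5′-UTR and coding sequence of the first exon and the region just upstream, and held 4 G4 motifs, the largest number in any HOX peak. A pair of narrower peaks, of 199 and 308 bp, lay in the intron of HOXB9. The next widest were a peak of 807 bp over a HOXB3 start, chr17:46659504-46660310, with no G4 motif, and the peak of 719 bp at chr17:46632618-46633336, which overlaps a non-coding exon of HOXB3 and held 3 motifs.

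The 7 HOXC peaks spanned 67.8 kb. The peak at HOXC13 and another of 274 bp, 5.72 kb upstream of HOXC12, were separated by 45369 bp from the other 5, which lay between 54388336 and 54400079 on chromosome 12. Those 5 peaks sat at the called HOXC6 start, at the TSSs and in the first exon of HOXC9, and upstream of HOXC8, and had widths from 273 to 420 bp. After them the window was free of peaks for 69.7 kb, through HOXC5 and HOXC4 to the end. HOXC thus had its peaks in 2 places, while the region of HOXC10 and HOXC11 and the anterior end lacked them.

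HOX peaks were ordinary in width and high in GC content. Their median width was 364 bp (range 3 to 1384), against 368 bp for all peaks, and their median GC content was 60.7%, against 53.2%. The narrowest, of 3 bp, was 1 of 5 HOX peaks under 200 bp, a class with 16.4% of all peaks. Of the 29 peaks, 14 lay within 1 kb of the TSS of a coding HOX transcript and 4 covered one. Of all peaks, 41.7% lay within 1 kb of a coding TSS and 27.0% covered one. The others lay in introns, in exons or between genes.

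A G4 motif lay inside 10 of the 29 HOX peaks (34.5%, 95% Wilson interval 19.9 to 52.7), against 23.2% of all peaks. The share was 8 of 22 in HOXB and 2 of 7 in HOXC. This interval includes the share of all peaks, but the reading depends on the motif rule. With loops of up to 12 bases the share was 55.2% (37.5 to 71.6) against 33.9%, with motifs up to 200 bp outside the peak 69.0% (50.8 to 82.7) against 35.1%, and in the central 200 bp 27.6% (14.7 to 45.7) against 12.7%, each with an interval above the share of all peaks. With peaks under 200 bp left out it was 41.7% (24.5 to 61.2) against 26.2%, which the interval includes. GC content moved with the motif. A motif was held by 1 of 5 HOX peaks with 40 to 50% GC, against 4.19% of all peaks in this class, and by 3 of 8 with 50 to 60% GC, against 16.5%. It was held by 6 of 11 with 60 to 70% GC, against 42.7%, and by 0 of 3 with 70 to 80% GC, against 61.5%. The HOX share was thus above that of all peaks in 3 of these 4 classes and below it in the other, on few peaks each. The part of GC content in the share of the HOX peaks was not tested.

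**Figure D5:**
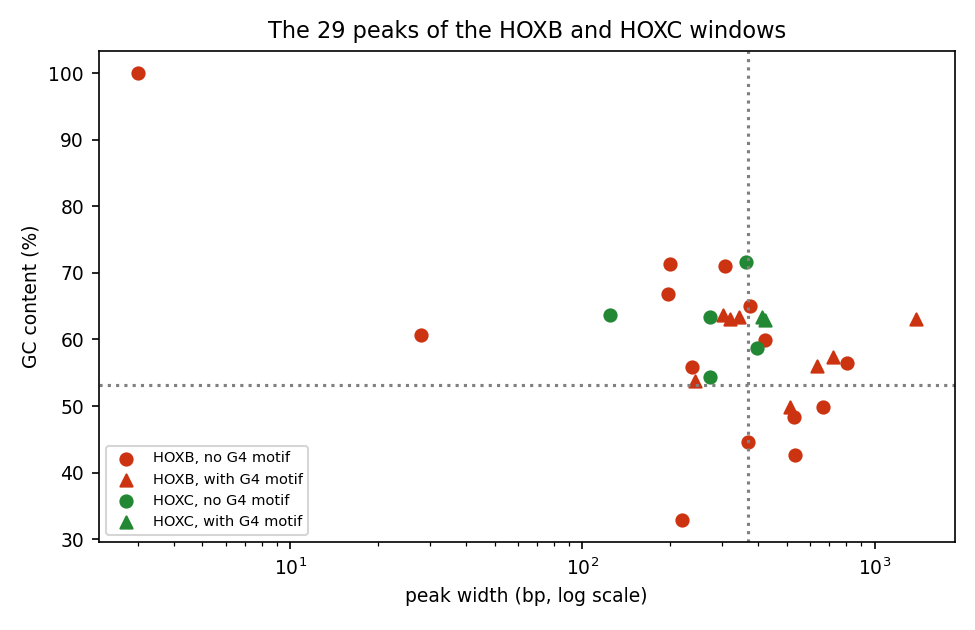
Width in bp (log scale) against GC content in percent for the 22 HOXB and 7 HOXC peaks, as triangles where a G4 motif lies inside the peak and circles where none does. Dotted lines are the medians of all peaks (368 bp and 53.2%); most HOX peaks lie above the GC line, the HOXB9 peak of 1384 bp is furthest right, and the 3-bp peak stands alone at the left.

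Short motifs were counted on both strands over the whole peak. A GATA motif (AGATAA and its spellings with T as the initial base, G as the last, or both), bound by the erythroid factor GATA1, was in 9 of 29 HOX peaks (31.0%), against 51.3% of all peaks. An AP-1 motif (TGACTCA, with C or G in the middle) was in 0 of 29, with an upper 95% Wilson limit of 11.7%, against 17.3%. The SP/KLF box GGGCGG was in 14 (48.3%), against 39.3%, and the E-box CAGCTG in 7 (24.1%), against 7059 of the 28265 peaks. The 95% Wilson interval of the GATA share, 17.3 to 49.2%, lay below the share of all peaks, whereas that of the SP/KLF share, 31.4 to 65.6%, included it. The GATA words are mostly A and T, and HOX peaks had the higher median GC content, 60.7% against 53.2%. The part of GC content in these shares was not tested.

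Motifs for HOX proteins themselves were in few HOX peaks, at shares whose 95% Wilson intervals include those of all peaks. The homeodomain core TAATTA was in 1 HOX peak (3.45%, interval 0.611 to 17.2), against 6.61% of all peaks. The composite PBX-HOX motif TGATTNAT was in 3 (10.3%, interval 3.58 to 26.4), against 4.89%. All of these were in HOXB, and 1 peak upstream of HOXB2, chr17:46625221-46625752, held both kinds as well as a GATA motif and an SP/KLF box. The other PBX-HOX matches were in the HOXB9 peak and in the HOXB3 peak at chr17:46632618-46633336. The YY1 core and the CTCF core, in the 8 spellings searched, were in 0 of the HOX peaks and in 0.941% and 1.98% of all peaks, which 29 peaks are too few to tell from 0. A match is a run of letters and not a bound site.

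Non-coding genes inside the windows were checked in the same way. Peaks covered the TSS of the antisense RNAs HOXB-AS1 and HOXC-AS1, and the TSS of HOXC-AS2 lay 57 bp from a peak. HOXB-AS3 lay 1240 bp and HOXB-AS2 1288 bp from the nearest peak. HOTAIR, a long non-coding RNA of the HOXC cluster known for acting with Polycomb, was 17.2 kb from one. In HOXA the distance was 23.7 kb for HOTAIRM1, a myeloid-expressed RNA, and 127 kb for HOTTIP, an RNA from the posterior end. Over the annotation, 17.2% of 18702 long non-coding RNA genes had a peak within 1 kb of a TSS of any transcript. None of the 11 long non-coding RNAs of the HOXA window and the 4 of the HOXD window that were counted had a peak within 1 kb, and 2 of 8 in HOXB and 2 of 7 in HOXC did, numbers too small to set apart from that share.

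The HOX clusters also carry microRNAs that are known to repress HOX mRNAs. Their hairpins, taken from RefSeq, were located by exact match to hg19. Mature RNAs of the loci nearest to a peak, and miR-196b-5p of the HOXA cluster for comparison, are shown in RefSeq's spelling with the seed (bases 2 to 8) in capitals.
miR-196a-5p: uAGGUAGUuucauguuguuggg
miR-196b-5p: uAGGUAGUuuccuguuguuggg
miR-10a-5p: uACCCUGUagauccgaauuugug
The miR-196 RNAs have 1 seed and come from 3 clusters. MIR10A, at chr17:46657200-46657309 on the minus strand, lay 170 bp from a HOXB peak of 667 bp, chr17:46657480-46658146, upstream of the hairpin. MIR196A1 at chr17:46709852-46709921 lay 964 bp from a HOXB peak, and MIR196A2 at chr12:54385522-54385631 lay 2704 bp from the HOXC6 peak. MIR615 in HOXC was 27.7 kb from a peak. The members of the same families in the other clusters were far from any peak, at 97.6 kb for MIR196B in HOXA and 130 kb for MIR10B in HOXD.

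Genes listed as regulators of the clusters or cofactors of HOX proteins had peaks about as often as other coding genes with CpG-rich promoters. Of 24 such genes, 15 (62.5%) had a peak within 1 kb of a TSS, against 46.8% of coding genes. Among the 20 with a CpG ratio of at least 0.6 it was 12 (60%), beside the 62.9% of coding genes with such a ratio. By canonical TSS 13 of the 24 had a peak. The trithorax-type methyltransferase genes KMT2A and KMT2B and their partners MEN1 and PSIP1 all had a TSS inside a peak, as did DOT1L, MLLT1 and AFF1 of the elongation machinery. So did the genes of the HOX cofactors PBX2, MEIS1, MEIS2 and PKNOX1, and the homeobox genes TGIF1 and TGIF2 of the same list. RARA, a retinoic acid receptor gene, had a TSS in a peak and RARG had one at 36 bp, both at alternative starts, since their canonical TSSs lay 8.36 kb and 10.3 kb from a peak. The genes without a call were PBX3, PBX4, MEIS3, PKNOX2, MLLT3, RARB and the caudal-type CDX1, CDX2 and CDX4, at distances from 1.81 kb for MEIS3 to 497 kb for CDX4. Of 12 other developmental homeobox genes, 1 had a peak, MNX1, and the median distance was 99.6 kb. EVX1 and EVX2 of this list lie in the peak-free stretches of HOXA and HOXD, and without them the count was 1 of 10.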

How the data were processed

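The deposited list has 3 columns, giving the position of each region, without a score, coverage or value per replicate. Per the study's methods, the authors used cutadapt 1.16 for trimming and BWA 0.7.15 for alignment to hg19, removed duplicates with Picard 2.14.0 and SAMtools 1.6, called peaks for each of 3 ChIP replicates in MACS2 2.1.1 (q-value under 0.05) and kept regions found in at least 2 of them with bedtools 2.26.0. A region missed in 2 replicates is absent from the list, so a window without a peak may still hold weaker signal. Depth is not in the list, and the precision of a share is that of its counts.

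Distances, motifs and base composition were computed here on hg19 with GENCODE 44 lifted to that build (Python 3.11.15, numpy 2.4.6, scipy 1.17.1, pysam 0.24.0, matplotlib 3.10.9). TSSs of protein-coding transcripts were used, so genes with several starts can be called at any of them. Windows took 20 kb of flank, and a peak counted as at a TSS within 1 kb. Motifs were found on whole chromosomes without overlap and had to lie wholly inside a peak. CpG-rich tiles measured 200 bp. With 1 condition and 1 pooled list there was no test between groups. Every listed HOX gene is named with its distance to a peak, and other genes are named where they lie in a window or on a list. The distance and motif code was checked on simulated data, with 2000 of 2000 distances and 200 of 200 planted motifs on each strand found. Alternatives were narrower peaks left out, peaks merged, other flanks, other TSS rules and other motif rules. The HOX genes and the gene lists were chosen with earlier results of these data known. MicroRNA sequences are from RefSeq (GRCh38.p14), and no coordinates of that build are given. A gene of the cofactor list and some sequences are not reported here.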

Additional observations from a re-analysis of the deposited data

How the results depend on the processing

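Of 73 alternative values for 17 results, 61 kept within 1.5 times the count, or within the interval of the share or median, and 12 moved. Some of the 61 could not have moved. In HOXA and HOXD, which held no peak, leaving out narrow peaks, removing the flank or a shorter TSS distance can only return 0. The tally is therefore no measure of how robust the results are. The 22 HOXB and 7 HOXC peaks stayed within that range with peaks under 200 bp left out, peaks up to 500 bp apart merged, other flanks and midpoints, and HOXD stayed at 0. HOXA went from 0 to 1 peak with a 50 kb flank. With the TSS required to lie inside the peak, HOX genes called went from 8 to 4 and those of HOXB from 5 to 2, while all coding genes went to 38.8%. The share of coding genes was 45.6% within 500 bp, 51.6% within 5 kb, 48.2% with all transcripts, 44.2% with canonical transcripts and 43.9% with peaks of at least 200 bp. The share of HOX peaks with a G4 motif rose to 55.2% with loops up to 12 bases (all peaks 33.9%) and to 69.0% with motifs within 200 bp of the peak (all peaks 35.1%). Merging raised the median width to 467 bp. No paired analysis was possible because the list pools the replicates, and for the same reason no replicate could be left out.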
